A study of Mus musculus and Homo sapiens with 12 samples.

Results

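The polycomb repressive deubiquitinase complex (PR-DUB) and its methyl-CpG-binding-domain (MBD) partners were followed through chromatin-associated RNA (caRNA) as 10 genes: Bap1, Asxl1, Asxl2, Asxl3, Mbd5, Mbd6, Foxk1, Foxk2, Hcfc1 and Ogt. The human genes of the same symbols were taken in capitals. Members were found by symbol and Ensembl identifier, and 10 of 10 were present among the 54446 mouse genes and 10 of 10 among the 58721 human genes of the count files. The rule uses names alone and no measured value.

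PR-DUB removes the ubiquitin that polycomb repressive complex 1 (PRC1) places on histone H2A, a mark of repressed chromatin. BAP1 is the catalytic subunit, and an ASXL protein must bind it for the enzyme to be active. MBD5 and MBD6 bind ASXL proteins through their MBD domains, FOXK1 and FOXK2 are forkhead transcription factors that bring the complex to DNA, OGT attaches O-linked N-acetylglucosamine to nuclear proteins, and HCFC1 is a chromatin cofactor that OGT cleaves.

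RNA retained on chromatin was fragmented and immunoprecipitated with an antibody against 5-methylcytosine (m5C), giving m5C-IP libraries, which were sequenced beside unprecipitated Input libraries. The cells were mouse embryonic stem cells (mESC) and K562, an established human leukaemia line, both wild type, with 3 IP and 3 Input libraries each, or 12 libraries in 4 groups. mESC were kept in serum with LIF, CHIR99021 and PD0325901 and passaged on gelatin to remove feeder cells, whereas the labels list serum and puromycin for wild-type K562, an agent that the study's methods name for its short hairpin RNA lines. Neither line received a further treatment, and the study calls its replicates biological. The labels do not say whether libraries of a group came from separate cultures. The p-values of the fits therefore rest on the spread between these libraries, pooled over Input and IP, which may be technical in part. Groups follow the library titles. The antibody field disagreed with the titles in that it named none for mESC IP and the m5C antibody for K562 Input.

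Gene counts ranged from 29007088 to 34752646 in mESC Input, 473398 to 592324 in mESC IP, 10477119 to 11865285 in K562 Input and 93110 to 111286 in K562 IP. Precision was therefore set by the IP libraries, where 3 reads stood for 5.06 to 6.34 CPM (counts scaled to 1000000 gene counts per library) in mESC and 27.0 to 32.2 CPM in K562. Of 6 stem cell markers in mESC Input, 5 averaged from 35.4 CPM (Dppa5a) to 793 CPM (Esrrb), while Sox2, which lies wholly inside the same-strand gene Sox2ot, was listed at 0. The 6 feeder fibroblast markers summed to between 51.7 and 56.8 CPM per library, led by Col1a1 at 29.4 CPM with Lum at 0, and the 4 differentiation markers summed to between 1.85 and 3.07 CPM. In K562 Input, GATA1, TAL1, KLF1, TFRC and HBG1 were detected and HBG2, also wholly overlapped on its strand, was listed at 0. The cell type field calls K562 a lymphoblast, but of 6 lymphoid markers 4 averaged under 1 CPM, MS4A1 was at 0, and RAG1 alone made up 31.8 of their summed 34.1 CPM. What a count covers was read from the files. Of 193 protein-coding mouse genes that lie whole inside a same-strand gene and share no exon with any other, 97.9% were at 0 in every mESC library, beside 15.8% of 475 such genes inside an opposite-strand gene and 14.1% of 11721 that overlap none. In K562 the shares were 80.6% of 165, 31.7% of 586 and 16.6% of 6609. Reads were therefore treated as assigned over whole gene spans, introns included, and by strand. Same-strand genes overlap at most 3.68% of the span of any member (FOXK1), so few of the members' reads could be lost this way. In bulk libraries such as these, fewer cells that use a gene and less RNA per cell cannot be told apart.

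Deposited peaks pointed to short stretches of mESC caRNA within these genes, and the printed ones were chosen because they recurred between replicates or met a coding exon. A recurring Asxl3 region and a recurring Foxk1 region in untranslated sequence are not printed. Coordinates are GRCm38 (mm10), and each sequence is written 5′ to 3′ on the strand of the gene, which is plus for both genes. The strand recorded for the peaks was minus, opposite to the gene, for all of them but Foxk1 exon edge a. Capitals mark protein-coding bases and lower case marks intron. The Bap1 region, chr14:31256601-31256751, was called in replicates 1 and 2, runs from an intron into a coding exon with 91 coding bases, and lies wholly within the exon of a transcript annotated as retaining that intron. The first Foxk1 region, chr5:142430964-142431121, was called in replicates 2 and 3 and is intronic. The remaining Foxk1 regions were called in 1 replicate each and cross coding exon edges, at chr5:142435092-142435241 with 101 coding bases, chr5:142453622-142453771 with 66 and chr5:142455515-142455664 with 63.
Bap1 region: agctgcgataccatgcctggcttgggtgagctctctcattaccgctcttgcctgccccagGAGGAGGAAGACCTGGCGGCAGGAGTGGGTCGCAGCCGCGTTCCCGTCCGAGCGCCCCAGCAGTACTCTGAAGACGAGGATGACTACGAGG
Foxk1 intronic region: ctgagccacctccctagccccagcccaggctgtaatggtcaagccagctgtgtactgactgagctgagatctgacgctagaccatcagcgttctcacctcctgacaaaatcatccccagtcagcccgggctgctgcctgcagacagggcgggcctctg
Foxk1 exon edge a: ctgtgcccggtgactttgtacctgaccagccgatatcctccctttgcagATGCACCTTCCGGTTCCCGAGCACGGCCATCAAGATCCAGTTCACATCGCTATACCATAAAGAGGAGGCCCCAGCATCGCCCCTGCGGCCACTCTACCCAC
Foxk1 exon edge b: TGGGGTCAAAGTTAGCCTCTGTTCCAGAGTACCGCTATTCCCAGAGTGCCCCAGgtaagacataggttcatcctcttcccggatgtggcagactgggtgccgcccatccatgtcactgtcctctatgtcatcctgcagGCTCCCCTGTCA
Foxk1 exon edge c: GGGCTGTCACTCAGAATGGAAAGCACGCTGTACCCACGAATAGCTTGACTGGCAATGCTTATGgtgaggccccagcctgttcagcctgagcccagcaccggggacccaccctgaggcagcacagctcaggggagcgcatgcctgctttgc

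The abundance of each member in caRNA was taken from Input, as CPM per kilobase of gene span. This level was chosen after the counts were seen to cover introns, and it compares genes of unlike length only roughly. Over protein-coding genes with reads and no overlap, log2 summed counts rose by 0.62 per log2 of span in mESC. They rose by 1.21 per log2 of exon union (merged exons) in the same regression. In K562 these slopes were 0.24 and 1.36. Slopes under 1 on span mean that division by span favours short genes of a given exon length. In mESC, Ogt was highest at 8.56 ± 0.102 (SD, n = 3), followed by Hcfc1 at 8.43 ± 0.0357. The scaffolds Asxl2 at 5.48 ± 0.103 and Asxl1 at 5.37 ± 0.0477 came next and overlapped over the libraries. Bap1, the catalytic subunit, stood at 4.40 ± 0.0504, Foxk2 at 4.10 ± 0.101 and Mbd6 at 3.12 ± 0.186. The lowest levels were those of Foxk1 at 0.882 ± 0.0440, Mbd5 at 0.729 ± 0.00680 and Asxl3 at 0.208 ± 0.0107. Other neighbours in this order did not overlap.

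In K562 the same scale placed OGT at 8.13 ± 0.236, MBD6 at 7.11 ± 0.130 and HCFC1 at 6.25 ± 0.140. BAP1 followed at 3.93 ± 0.153, ASXL1 at 3.48 ± 0.0441, and then FOXK2 at 2.61 ± 0.0560 and FOXK1 at 2.60 ± 0.0529, whose libraries overlapped. ASXL2 stood at 1.99 ± 0.0273 and MBD5 at 0.392 ± 0.00598. ASXL3 had 2, 1 and 0 Input reads and none in IP, which is at or under the floor of 3 reads, so no ratio was formed for it. OGT or Ogt was thus the most abundant member per kilobase of gene span in both lines, and Asxl3 was the least abundant in mESC. Levels in different species were not tested against each other. Per kilobase of exon union, the length chosen at first, the order changed: Asxl1 at 42.0 and Foxk2 at 38.9 then came above Hcfc1 at 23.8 in mESC, and Bap1 at 7.98 came below Mbd5 at 14.0. In K562 FOXK2 at 32.6 then came next after OGT at 35.5, and MBD6 at 12.1 stood below HCFC1 and FOXK1. Per kilobase of the longest transcript FOXK2 at 62.1 came above OGT at 41.5.

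**Figure D1:**
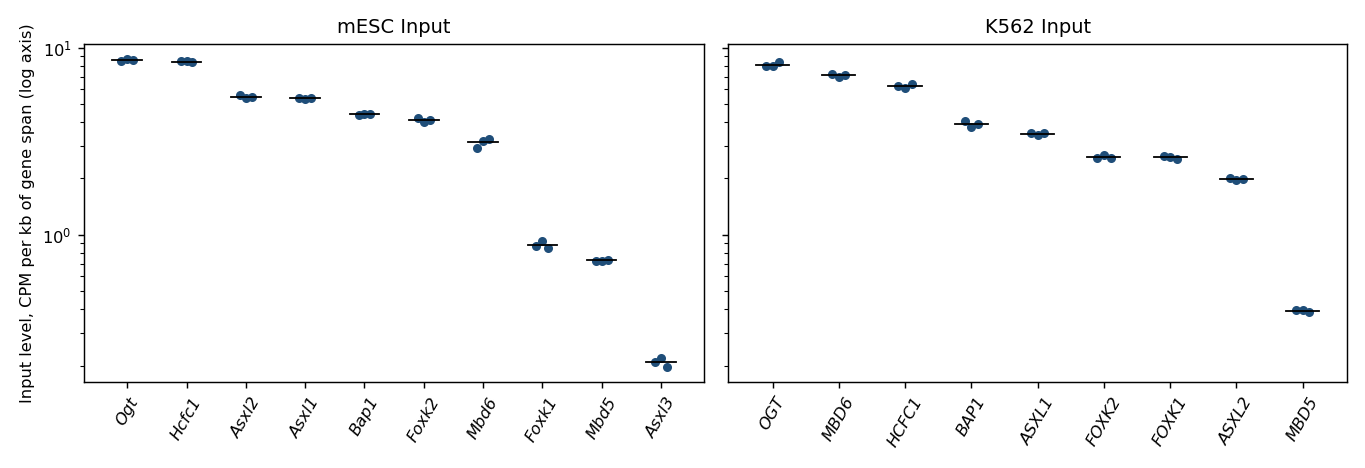
Input level of each member in mESC (left) and K562 (right), in CPM per kilobase of gene span on a log axis, ordered from high to low; points are the 3 Input libraries and lines their means. ASXL3, with 0 to 2 reads per library, is left out on the right; mESC levels run from 8.56 for Ogt to 0.208 for Asxl3.

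Each member was next compared between IP and Input, which asks whether its share of the precipitated RNA differs from its share of caRNA. The test was edgeR's quasi-likelihood test with TMM scaling and Benjamini-Hochberg adjustment over all genes tested, here called lower or higher in IP at an adjusted p under 0.05. In mESC, 8 of 10 members were lower, where 42.0% of all 20244 tested genes were lower, and 1 was higher, where 39.9% of all genes were. The members' median log2 IP/Input was -1.75, beside -0.17 for all tested genes and -0.70 for protein-coding genes. The scale matters for the sign: with library sizes alone the median of all genes was 0.83, and the share of calls that were higher went from 48.7% to 67.9%. CPM values below are not TMM-scaled, so their ratios lie above the fitted log2 values. Each dispersion in the fit was shared by Input and IP, although IP scattered more. For mESC Foxk2 the SD was 65.4 CPM in IP and 5.04 CPM in Input. The SE and p-values can therefore understate the spread of the IP libraries.

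Bap1, the deubiquitinase itself, had 36.9, 37.6 and 37.6 CPM in mESC Input and 21.1, 22.1 and 16.9 CPM in IP. All 3 IP libraries lay under all 3 Input libraries. The fitted log2 IP/Input was -1.88 (SE 0.24, edgeR adjusted p = 2.48e-06), but IP held only 10, 13 and 10 reads. With Input thinned to IP depth the value was -0.63 (edgeR adjusted p = 0.160). That setting, with 10313 genes tested in place of 20244, raised the log2 of every mESC member. Asxl1 went from -2.23 to -0.86 and Foxk1 from 1.16 to 2.62, so the shift was not particular to Bap1. Human BAP1 had 36.7, 34.0 and 35.4 CPM in Input and 27.8, 62.9 and 43.0 CPM in IP. These ranges overlapped, with 3, 7 and 4 IP reads, and the log2 of 0.13 (SE 0.40) gave an edgeR adjusted p of 0.845.

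Asxl1 and Asxl2, the scaffolds that activate BAP1, were among the members most under-represented in mESC IP. Asxl1 had 314, 309.5 and 315 CPM in Input and 86.6, 138 and 159 CPM in IP, with log2 -2.23 (SE 0.12, edgeR adjusted p = 7.28e-11). Asxl2 had 447, 430.3 and 438 CPM in Input and 161, 262 and 204 CPM in IP, with log2 -2.02 (SE 0.10, edgeR adjusted p = 3.63e-11). Neither overlapped between the groups, and both were lower under all 14 alternatives tried. Asxl3, a family member whose expression is more restricted across tissues, went the other way in CPM, from 38.6, 40.6 and 36.6 in Input to 101, 78.2 and 96.2 in IP. These groups did not overlap, yet the TMM-scaled log2 was 0.27 (SE 0.16) with an edgeR adjusted p of 0.136. Asxl3 was higher, past the threshold, under 6 of 14 alternatives, among them library size scaling (1.28), RLE scaling (0.44) and DESeq2 (0.44), and its log2 was -0.17, short of the threshold, with no count filter.

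In K562 the pair of scaffolds was again lower. ASXL1 had 283, 277 and 284 CPM in Input and 176, 126 and 129 CPM in IP, with log2 -1.17 (SE 0.19, edgeR adjusted p = 1.1e-07), and it was lower under all 15 alternatives. ASXL2 had 293, 285 and 288 CPM in Input and 157, 252 and 236 CPM in IP, with log2 -0.64 (SE 0.17, edgeR adjusted p = 0.00152). Here too no IP library reached an Input library. The ASXL2 call was lost without IP replicate 1 (-0.45, adjusted p = 0.0806), with the GC correction (-0.27), with library size scaling (-0.37) and with Input thinned (-0.03).

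Mbd5, which binds ASXL proteins, had 273, 272 and 277 CPM in mESC Input and 158, 165 and 199 CPM in IP. The groups stood apart, with log2 -1.62 (SE 0.10, edgeR adjusted p = 3.38e-10), and the call was lost only with Input thinned, at -0.23. Its relative Mbd6 was barely covered, with 6, 24 and 7 IP reads. Mbd6 had 20.6, 22.5 and 23.1 CPM in mESC Input and 12.7, 40.8 and 11.8 CPM in IP, so that IP replicate 2 lay above every Input library and the others below. The fitted log2 of -0.96 (SE 0.33, edgeR adjusted p = 0.0142) kept its call under 5 of 14 alternatives and was 0.05 with library size scaling. Leaving out IP replicate 1 gave -0.68 (adjusted p = 0.0864) and leaving out IP replicate 3 gave -0.59 (adjusted p = 0.126), whereas without IP replicate 2 the value was -1.80 (adjusted p = 0.000324). Leaving out any 1 Input library also ended the call, with adjusted p from 0.0658 to 0.0940.

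The human pair was lower as well. MBD5 had 196, 196 and 191 CPM in K562 Input and 111, 108 and 85.9 CPM in IP, with log2 -1.13 (SE 0.22, edgeR adjusted p = 1.12e-05). Its groups did not overlap, and the call was lost with the GC correction (-0.54, adjusted p = 0.0852) and with Input thinned (-0.79). MBD6 had 68.4, 65.9 and 67.1 CPM in Input and 18.5, 35.9 and 64.4 CPM in IP, from 2, 4 and 6 IP reads. No IP library reached the Input range, and the log2 of -1.01 (SE 0.37, edgeR adjusted p = 0.0233) kept its call under 7 of 14 alternatives. It was lost without IP replicate 1 (-0.66, edgeR adjusted p = 0.261) and without IP replicate 2 (-0.97, edgeR adjusted p = 0.103). Library size scaling gave -0.74 (edgeR adjusted p = 0.147) and RLE scaling -0.89 (edgeR adjusted p = 0.0595). With DESeq2 the value was -0.89 (adjusted p = 0.0976). The call was also lost with the Input libraries summed to 1 (-1.01).

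Foxk1 was the 1 member higher in mESC IP. It had 52.5, 56.3 and 51.2 CPM in Input and 313, 184 and 219 CPM in IP, resting on 148, 108 and 130 IP reads. Every IP library stood above every Input library. The TMM-scaled log2 was 1.16 (SE 0.15, edgeR adjusted p = 2.39e-06), and it was higher past the threshold under all 14 alternatives, from 0.72 to 2.62. This value was not extreme among all genes: 61.3% of tested genes and 68.8% of protein-coding ones had a lower log2 IP/Input. Foxk2, the other forkhead factor, had 209.6, 199.5 and 205 CPM in Input and 154, 122 and 248 CPM in IP. IP replicate 3 exceeded all Input libraries and the groups overlapped. Its log2 of -1.19 (SE 0.14, edgeR adjusted p = 9.38e-07) became -0.18 (adjusted p = 0.311) with library size scaling and 0.02 with Input thinned.

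In K562 neither forkhead factor passed the test. FOXK1 had 236, 231 and 227 CPM in Input and 259, 179.7 and 204 CPM in IP, with log2 -0.32 (SE 0.17, edgeR adjusted p = 0.161). FOXK2 had 321, 334 and 323 CPM in Input and 509.6, 323 and 387 CPM in IP, with log2 0.11 (SE 0.14, edgeR adjusted p = 0.576). The groups overlapped for both. FOXK1 passed as lower with the GC correction and with no count filter, and FOXK2 as higher with library size scaling and with Input thinned.

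Hcfc1 and Ogt, cofactor and glycosyltransferase, were lower in mESC IP. Hcfc1 had 199, 199 and 198 CPM in Input and 88.7, 93.5 and 57.4 CPM in IP, with log2 -2.30 (SE 0.13, edgeR adjusted p = 2.5e-10), the smallest value of the 10 members. Ogt had 375, 384 and 379 CPM in Input and 213, 143 and 172 CPM in IP, with log2 -2.10 (SE 0.10, edgeR adjusted p = 2.58e-11). In both the groups stood apart, and both were lower under all 14 alternatives.

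In K562 OGT passed the test and HCFC1 did not. HCFC1 had 151, 149 and 155 CPM in Input and 83.4, 171 and 204 CPM in IP, with IP libraries on either side of Input and log2 -0.22 (SE 0.21, edgeR adjusted p = 0.458). OGT had 343, 341 and 359.5 CPM in Input and 472, 566 and 569 CPM in IP. All 3 IP libraries lay above Input, and OGT was higher with log2 0.41 (SE 0.13, edgeR adjusted p = 0.0054). That call was lost without IP replicate 2 (0.35, adjusted p = 0.0890), without IP replicate 3 (0.38, adjusted p = 0.0624), with no count filter (0.07) and with the Input libraries summed to 1 (0.41, adjusted p = 0.105), an alternative chosen after seeing the data.

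Over the K562 members, 4 of 9 tested were lower, beside 16.4% of 14522 tested genes, and 1 was higher, beside 15.1%. The members' median log2 IP/Input was -0.32 and that of all genes -0.16. In K562, too, scaling moved the sign, since 47.9% of all calls were higher with TMM, 58.5% with the GC correction, 64.8% with DESeq2, 68.3% with Input thinned and 70.2% with library size scaling. Exonic GC content of the members and their log2 IP/Input had Pearson's r of 0.24 over 10 genes in mESC and 0.21 over 9 genes in K562, as a description over genes measured in the same libraries.

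**Figure D2:**
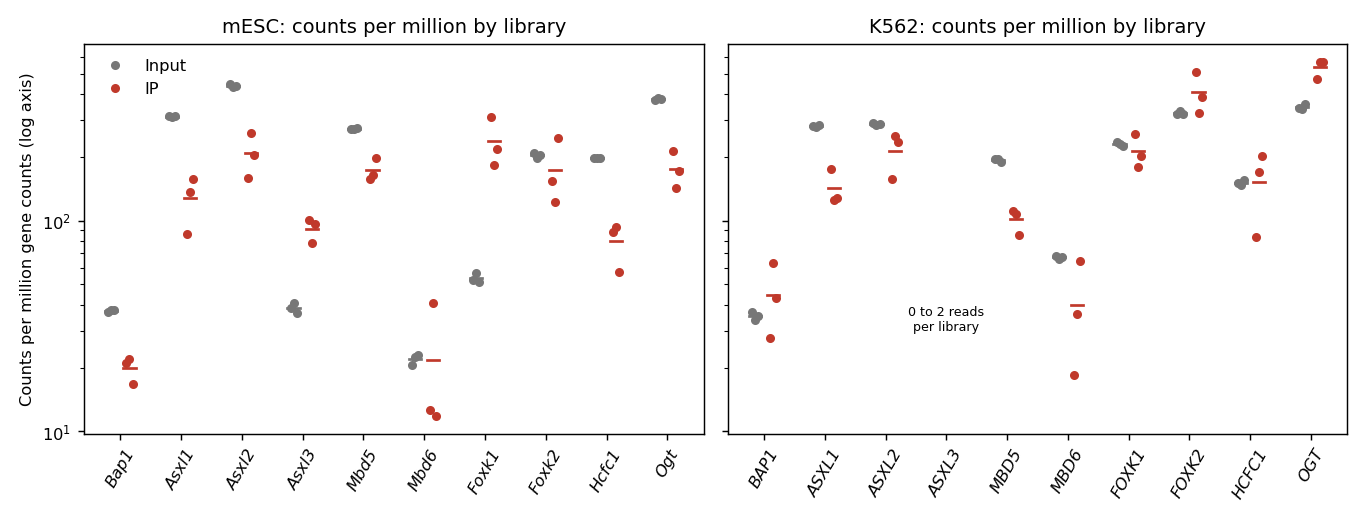
CPM of each member in the 12 libraries on a log axis, mESC on the left and K562 on the right; grey points are Input, red points are IP and lines are means of 3. Foxk1 and Asxl3 IP points sit above Input in mESC, most other mESC members sit below it, and IP points scatter far more than Input points.

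**Figure D3:**
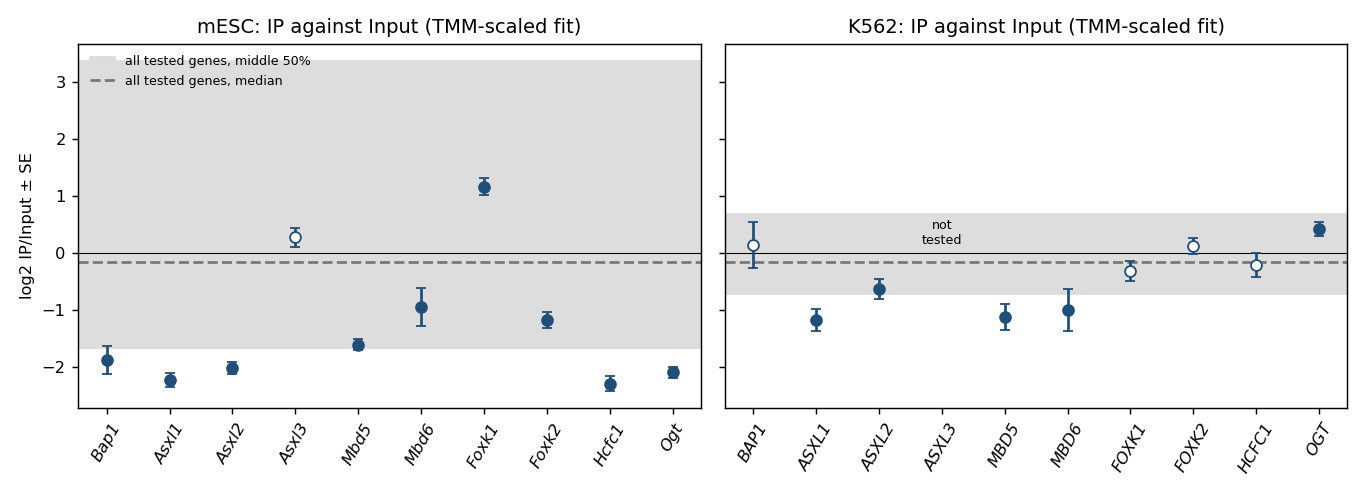
TMM-scaled log2 IP/Input of each member with its SE; filled points have an edgeR adjusted p under 0.05, the grey band spans the middle 50% of all tested genes and the dashed line is their median. In mESC 8 members are filled below 0 and Foxk1 above it; in K562 the range is narrower, from -1.17 for ASXL1 to 0.41 for OGT.

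A member's share of the counts of all 10 members does not depend on scaling between libraries. Foxk1 took 2.61% to 2.89% of them in mESC Input and 14.7% to 23.9% in IP. Asxl3 went from 1.87% to 2.08% in Input to 6.27% to 7.74% in IP. Ogt went the other way in mESC, from 19.1% to 19.7% in Input to 11.4% to 16.3% in IP, whereas in K562 it took 17.8% to 18.6% of Input and 26.0% to 31.0% of IP. Bap1 stayed a small fraction throughout, at 1.88% to 1.93% of mESC Input and 1.22% to 1.77% of IP. A share falls when another rises, so these values are not independent of each other.

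Whether a member's IP/Input differed between the lines was tested by an interaction term for line and library kind in 1 fit of 12 libraries, limited to genes with the same symbol in both species. TMM factors and the gene list differ from those of the separate fits, so these differences are not the plain subtraction of the values above. As K562 minus mESC, 4 of 10 members were higher, where 16.5% of 14236 genes were, and 1 was lower, where 14.5% were. The median over all genes was 0.16, and RLE scaling gave -0.27 and library sizes alone -0.15, under which the share of calls that were higher went from 53.2% to 35.3% and 39.9%. Line, species, annotation and depth changed together here and cannot be told apart.

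Foxk1 had the most negative difference that passed, -2.11 (SE 0.24, edgeR adjusted p = 4.79e-08), with IP above Input in every mESC library and overlap in K562. Ogt had the most positive, 1.88 (SE 0.19, edgeR adjusted p = 6.83e-09), being below Input in mESC and above it in K562. Both passed under all 21 alternatives, Foxk1 from -2.57 to -1.90 and Ogt from 1.44 to 2.01. Hcfc1 differed by 1.45 (SE 0.34, edgeR adjusted p = 0.00133) and passed under 20 of 21, the exception being thinned Input at 1.12 (adjusted p = 0.0525).

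Asxl2 at 0.75 (SE 0.27, edgeR adjusted p = 0.0353) and Foxk2 at 0.66 (SE 0.25, edgeR adjusted p = 0.0402) passed less firmly. The Asxl2 difference passed under 13 of 21 alternatives and was lost without K562 IP replicate 2 (0.58) or 3 (0.68), and under RLE scaling it was 0.31. The Foxk2 difference passed under 8 of 21 alternatives and fell short without any 1 of 8 libraries: mESC Input replicates 1 and 3, mESC IP replicate 2, K562 Input replicates 1 and 3, and each K562 IP replicate, with values from 0.44 to 0.79. Bap1 differed by 1.38 (SE 0.54), with an edgeR adjusted p of 0.0540, and passed under 5 of 21 alternatives, among them without mESC IP replicate 1 (1.41), without mESC IP replicate 2 (1.47) and without K562 IP replicate 1 (1.64). Asxl1 (0.42), Mbd5 (-0.15) and Mbd6 (-0.69) missed the threshold, with standard errors of 0.31, 0.30 and 0.62 that leave room for sizeable differences. The Mbd6 difference was 0.19, of opposite sign, both without mESC IP replicate 2 and with the GC correction, and with DESeq2 it passed at -1.13 (adjusted p = 0.0494). Asxl3 was fitted, but with no IP read in K562 its difference is not given.

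Related members were then set against each other within each library, as the log2 ratio of their counts with a pseudocount of 0.5. Foxk1/Foxk2 counts in mESC stood at 0.250, 0.282 and 0.250 in Input and at 2.02, 1.50 and 0.885 in IP. The Foxk pair thus differed by 2.41 on the log2 scale, 5.33-fold, with no overlap. In K562 FOXK1/FOXK2 was 0.738, 0.694 and 0.704 in Input and 0.514, 0.562 and 0.534 in IP, a log2 difference of -0.41 with no overlap. The difference between the lines in this ratio was not itself tested.

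Asxl3/Asxl1 in mESC also stood apart, going from 0.123, 0.131 and 0.116 in Input to 1.17, 0.571 and 0.608 in IP, a log2 difference of 2.58. Asxl1/Asxl2 ratios overlapped between IP and Input in both lines, with differences of -0.23 in mESC and -0.52 in K562. In mESC this was -0.15, -0.13 and -0.41 without IP replicate 1, 2 or 3, and in K562 -0.87, -0.31 and -0.37. Mbd6/Mbd5 also overlapped, with differences of 0.46 in mESC and 0.14 in K562, and these changed sign to -0.12 without mESC IP replicate 2 and to -0.36 without K562 IP replicate 3. Over 7 ratios the exact two-sided permutation p was 0.1 for the 3 that did not overlap, the smallest that 3 libraries against 3 can give, and 0.233 after Benjamini-Hochberg adjustment, so none could pass 0.05. The other 4 had exact p from 0.4 to 0.7.

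**Figure D4:**
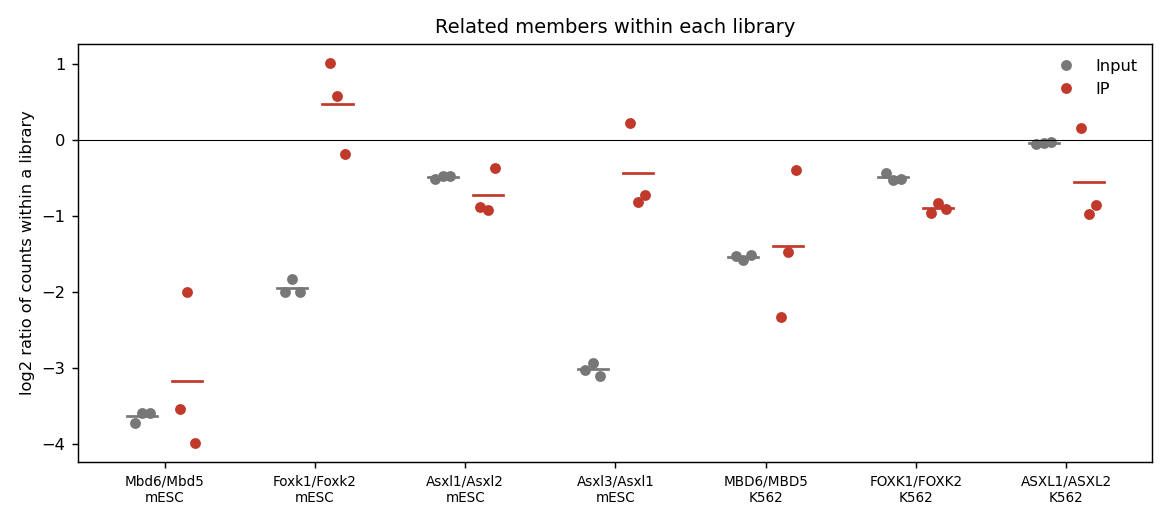
Log2 ratio of the counts of related members within each library, by pair and cell line; grey points are Input, red points IP, lines are means of 3 and the horizontal line marks equal counts. Foxk1/Foxk2 and Asxl3/Asxl1 lie higher in every mESC IP library than in any Input library, by 2.41 and 2.58 on average.

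Peak lists were analysed for the 3 mESC IP libraries, with 11146, 15404 and 15797 peaks, which merged per strand into 35162 regions where they overlapped by at least 1 bp. Of these, 4807 regions held peaks of 2 or more replicates. On the strand of the gene, 3 of 10 members held a region, beside 22.9% of tested genes. On either strand 7 of 10 did, beside 41.2%. That share does not allow for gene span, which ran from 7.06 to 376 kb over the members. Of tested genes that span 50 to 100 kb, 58.7% held any region. A region of at least 2 replicates lay in 3 of 10, namely Foxk1, Bap1 and Asxl3, beside 7.31%. The recorded strand is doubtful as a guide to the transcript: of peaks wholly within exons, 351, 491 and 540 in the 3 replicates lay on the strand of a gene and 478, 734 and 774 on the opposite one. No peaks had a usable score, so regions were not ranked by strength.

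Foxk1, singled out after its values were seen, held 13 regions over 60.5 kb. There were 6 peaks in replicate 1, 2 in replicate 2 and 7 in replicate 3, and 2 regions recurred. As many regions were found in 0.331% of all tested genes, and in 0.171% of the 2916 tested genes that span 50 to 100 kb, where 58.7% held any region and the median was 1. Of these 13 regions 3 were recorded on the strand of Foxk1. The recurring ones were the intronic stretch printed above, with 60.8% GC, and chr5:142457598-142457747 in replicates 1 and 3, wholly within the 3′ untranslated part of the last exon and 63.3% GC. Other Foxk1 regions were intronic, crossed coding exon edges as printed, or, at chr5:142461381-142461530, lay in the same untranslated exon.

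Bap1, at 8.50 kb, held the single region printed above, recorded on the strand opposite to the gene, 63.6% GC with 11 CG dinucleotides. Counts over the gene were lower in IP. Asxl3 held 1 intronic region in replicates 2 and 3, recorded on its own strand, 101 kb from its start. Mbd5, which spans 376 kb, held 4 regions with none shared between replicates, and Asxl2, Foxk2 and Hcfc1 held 1 each, all intronic and all from replicate 2. The Hcfc1 region was 77.3% repeat-masked, and an Mbd5 region and the Foxk1 region at chr5:142411533-142411682 were wholly so. Asxl1, Mbd6 and Ogt held none. In all, 15 of the 22 member regions were intronic.

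**Figure D5:**
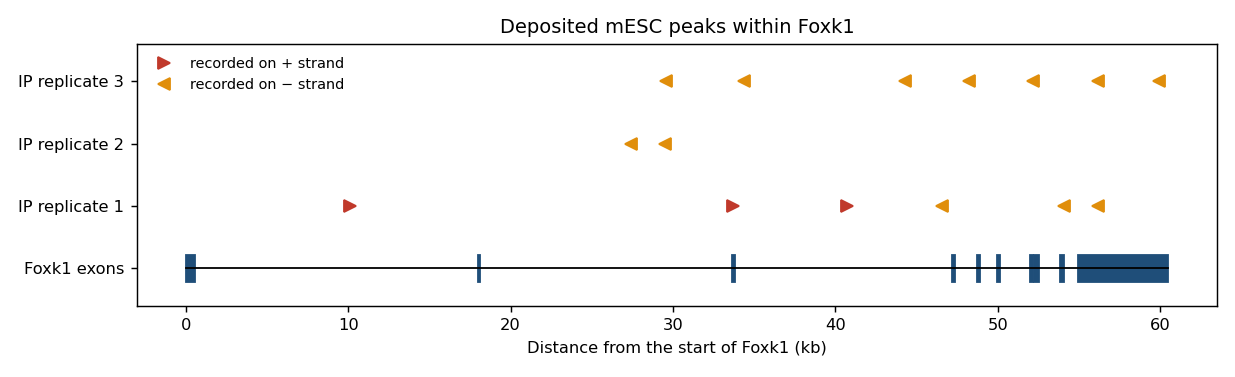
Deposited mESC peaks within Foxk1 by distance from the gene start in kilobases; blue boxes are exons, and each triangle is the middle of a peak in the replicate of its row, coloured by recorded strand. Of the 15 peaks 14 lie beyond 20 kb, and 12 of them were recorded on the minus strand, opposite to the gene.

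The genes around the complex were examined as lists chosen with earlier results known. Their counts stand beside 42.0% of all tested genes lower and 39.9% higher in mESC, and 16.4% lower and 15.1% higher in K562. Of 6 tested other PR-DUB interactors in mESC, 5 were lower and 0 higher by edgeR, with 0 higher at an unadjusted p under 0.05, and DESeq2 also gave 5 lower and 0 higher. The median log2 was -1.87. Ino80, a chromatin remodeller, was lowest at -2.52 (SE 0.12) and Hcfc2, a relative of Hcfc1, highest at -0.83 (SE 0.38, edgeR adjusted p = 0.0543). In K562 1 of 7 was lower, the transcription factor YY1 at -0.96, and 0 were higher (0 at an unadjusted p under 0.05). DESeq2 likewise gave 1 lower and 0 higher, and 1 of 7 is near the share over all genes. HCFC2 was lowest there at -1.15 (SE 0.57, adjusted p = 0.120) and KDM1B, a histone demethylase, highest at 0.08.

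The other H2A deubiquitinases and ubiquitin hydrolases were mostly lower in mESC, with 10 of 11 lower and 0 higher by edgeR, 0 higher at an unadjusted p under 0.05, and 8 lower and 0 higher by DESeq2. Their median log2 was -2.02, from Uchl3 at -2.65 to Usp12 at 0.56 (SE 0.29, edgeR adjusted p = 0.0853). In K562 4 of 9 tested were lower and 0 higher, again with 0 higher at an unadjusted p under 0.05, while DESeq2 gave 2 lower and 0 higher. WDR48, which activates several of these enzymes, was lowest at -1.25 and USP21 highest at -0.07.

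Other genes with an MBD domain gave 8 of 9 lower in mESC and 0 higher by edgeR, with 0 higher at an unadjusted p under 0.05, and the same counts by DESeq2. Setdb2, a histone methyltransferase gene, was lowest at -2.64 and Mbd3 highest at -0.58 (SE 0.27, edgeR adjusted p = 0.0587).

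Genes of the ligase that places the mark, PRC1, gave 8 of 11 lower and 1 higher in mESC by edgeR, and 7 lower and 2 higher by DESeq2, with a median of -1.43. Rybp was lowest at -2.80 and Pcgf5, a variant PRC1 subunit, was higher at 0.67 (SE 0.21, edgeR adjusted p = 0.00737). In K562 4 of 11 were lower and 0 higher by edgeR (0 higher at an unadjusted p under 0.05), and 3 were lower and 0 higher by DESeq2, from RNF2, a catalytic subunit, at -1.29 to PCGF1 at 0.65 (SE 0.84).

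Genes near Bap1 and Mbd6 were found by Euclidean distance over 4 values among 9961 genes. The values were log2 IP/Input and log2 Input level per kilobase of exon union in each line. For Bap1 these were Asrgl1 at a distance of 0.216, Ogg1 at 0.286 and Cyth2 at 0.322. For Mbd6 they were Nckipsd at 0.258, Rab23 at 0.289 and Flvcr1 at 0.347. These distances are of the size of the standard errors of log2 IP/Input in mESC and K562. Those were 0.24 and 0.40 for Bap1 and 0.33 and 0.37 for Mbd6, so which genes rank nearest is uncertain.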

How the data were processed

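Raw counts of reads per gene, deposited for each of 12 libraries, and peak positions for 3 mESC IP libraries were analysed. The study's methods name Trimmomatic, HISAT2 (mm10 or hg38), HTSeq for gene counts, Picard for duplicates before peak calling, and MACS2 per library and strand. Whether counted reads were deduplicated is not given in the sources used here; the files show counts over gene spans by strand. Counts in HTSeq summary lines were left out, no spike-in was used, and values are relative to the gene counts of a library. These lines held 19.0% to 19.3% of a library's records in mESC Input and 71.4% to 71.7% in mESC IP. In K562 they held 26.0% to 26.2% in Input and 60.7% to 61.4% in IP. Identifiers matched GENCODE M21 (99.9%) and 44 (99.2%), other releases than the study used. edgeR 4.0.16 in R 4.3.3 (glmQLFit, glmQLFTest, TMM, filterByExpr, adjusted p under 0.05) was the main test; SE is the absolute log2 divided by the square root of F. DESeq2 1.42.0, other scalings, filters, thinning, a correction for exonic GC content, the replicate block and leaving out each library were alternatives. Paralogue ratios used exact permutation tests (SciPy 1.17.1). Fits were tested on simulated data. All members were named, and the highest and lowest gene of each list. The K562 result for the other genes with an MBD domain is not reported here. K562 Input replicates differed by no more than about the sampling noise over genes (chi-square per degree of freedom 0.912 to 1.03). In mESC Input this was 2.03 to 2.37, in mESC IP 3.80 to 3.89 and in K562 IP 1.17 to 1.21. The common coefficient of variation between replicates in the edgeR fit was 0.058 in mESC and 0.0099 in K562. The K562 fit thus added little spread to counting error. Over GC bins the K562 Input replicates differed by more (20.2 to 86.2), which cannot tell separate cultures from repeated libraries of the same RNA. All 3 were kept as labelled, with their sum as an alternative. Floors cover counting error only. Members and lists were chosen with earlier results of these data known.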

Additional observations from a re-analysis of the deposited data

Results flagged for a closer look

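The difference in log2 IP/Input between K562 and mESC passed the interaction test (edgeR) for 5 members, 4 higher and 1 lower, beside 16.5% and 14.5% of all genes tested, which marks them for a closer look. As K562 minus mESC these were Foxk1 at -2.11, Ogt at 1.88, Hcfc1 at 1.45, Asxl2 at 0.75 and Foxk2 at 0.66. Asxl2 passed under 13 and Foxk2 under 8 of 21 alternatives. The cause was not tested, and species, annotation and depth cannot be told apart from the cell line. Groups of 3 libraries were too small to be searched for single libraries that stand apart.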

How the results depend on the processing

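Of 204 alternative values for the counts and ratios that answer a comparison, 171 stayed within 1.5 times the reported count or within 1 SD of the reported ratio. Of those for single members, 458 stayed on the reported side of the test's threshold in the reported direction, or missed it both times, or, for Input levels, moved by less than 1 SD. Values that missed it could change sign, as FOXK1 (0.57) and HCFC1 (0.46) did in K562 with Input thinned. With Input thinned to IP depth, calls over all genes went from 16590 to 6128 in mESC, from 4576 to 552 in K562 and from 4407 to 1843 for the difference between lines, with 10313, 3182 and 8150 genes tested, and members called lower went to 4 in mESC and 1 in K562. K562 calls over all genes were 8237 with no count filter and 3026 with the Input libraries summed. In mESC 2 members were higher under library size and RLE scaling, DESeq2, the stricter filter, thinned Input and the GC correction. In K562 members called higher were 2 with library size scaling or thinned Input and 0 with no count filter or summed Input, and members called lower were 2 with library size scaling. For the difference between lines, members called higher were 2 under library size and RLE scaling, DESeq2, the stricter filter and thinned Input, and members called lower were 2 with DESeq2. Leaving out 1 library at a time gave 0 to 1 higher and 2 to 4 lower in K562, 2 to 5 higher between lines, and ratios from -0.12 to 0.87 for Mbd6/Mbd5 and -0.36 to 0.60 for MBD6/MBD5. Members holding a peak went from 3 on the strand of the gene to 7 on either strand, and to 1 where a region on the strand of the gene had to hold at least 2 replicates. Foxk2 in mESC was 0.021 with thinned Input and Mbd6 was 0.050 with library size scaling, both of opposite sign to the reported value. The cause of these changes was not tested except where stated. The replicate block called 15434 genes in mESC, 3940 in K562 and 4496 between lines, and of the members' calls it ended only that of MBD6 in K562 (-1.01, adjusted p = 0.0517). Same-numbered libraries correlated at 0.019 to 0.028 in mESC and -0.0066 to 0.022 in K562. In mESC each library correlated best with its own number, as did Input replicates 2 and 3 in K562. Values this small from shallow IP libraries cannot decide whether the numbers are pairs. The main fits did not take them as pairs, and the block was kept as an alternative. Bap1 and Mbd6 held the fewest mESC IP reads of the members, 33 and 37 over the IP libraries. In K562 BAP1 and MBD6 held 14 and 12, more than ASXL3 alone.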
